A study of Mus musculus with 6 samples.

Results

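The 9 genes described here belong to muscle protein breakdown and atrophy, measured in the infarcted mouse heart. They are the muscle RING-finger ubiquitin ligases Trim63, Trim54 and Trim55, the F-box proteins Fbxo32 and Fbxo40, the cullin adaptor Asb2, the mitophagy receptor Bnip3, the autophagy receptor Sqstm1 and the mTORC1 inhibitor Ddit4. They were chosen by symbol, with earlier results of these data known, and each matched 1 row of the count table by its Ensembl identifier. All 9 passed the filter on low counts and stand among 14406 genes tested and 54532 rows in all. RNA was sequenced from hearts of C57BL/6 mice aged 8 to 10 weeks, collected at day 14 after myocardial infarction, with 3 wild-type libraries (WT) and 3 libraries of mice that lack the atypical chemokine receptor ACKR4 (ACKR4_KO). Both groups had been infarcted, and no uninfarcted heart is among the samples. The sources used here do not give the region of the heart, the construction of the knockout allele or the number of animals behind each library, so p-values measure the spread between these samples, which may be technical.

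Ubiquitin ligases choose the proteins that are tagged for the proteasome. In striated muscle a small set of them, led by Trim63 (MuRF1) and Fbxo32 (atrogin-1), is switched on by FoxO transcription factors and by glucocorticoids when muscle wastes, and held down by insulin and IGF-1 signalling through Akt. In the heart the same ligases take part in the turnover of sarcomere proteins and in limiting hypertrophy, while Sqstm1 and Bnip3 carry cargo and mitochondria to the autophagosome and Ddit4 restrains mTORC1 under hypoxia, energy stress and glucocorticoids.

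The proximal promoters are shown because motifs of these inputs can be read in them. RefSeq promoters on GRCm38.p6 were found for 7 of the 9 genes, and the 250 bases before the start were searched on both strands for TGTTTAC (the FoxO core), the palindromic glucocorticoid response element (GAACA and TGTTC with 3 bases between them), ACGTG (the hypoxia response core), TGACNNNGC (the antioxidant response core) and the CArG box. Fbxo32 and Trim55 had no entry. The 4 with a match in their most upstream entry are printed from 5′ to 3′ on the gene's own strand, with the matched bases in capitals.
Trim63, chr4:134314870-134315119, plus strand: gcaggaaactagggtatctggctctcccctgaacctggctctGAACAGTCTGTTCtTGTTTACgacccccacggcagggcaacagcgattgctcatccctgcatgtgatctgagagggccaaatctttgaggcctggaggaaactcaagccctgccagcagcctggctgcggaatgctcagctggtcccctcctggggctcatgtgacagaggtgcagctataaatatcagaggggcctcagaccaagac
Asb2, chr12:103356002-103356251, minus strand: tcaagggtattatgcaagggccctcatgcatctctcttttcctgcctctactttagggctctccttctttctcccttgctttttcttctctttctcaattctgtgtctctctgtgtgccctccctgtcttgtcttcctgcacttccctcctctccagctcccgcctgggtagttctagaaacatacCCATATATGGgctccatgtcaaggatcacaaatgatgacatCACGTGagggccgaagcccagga
Bnip3, chr7:138909507-138909756, minus strand: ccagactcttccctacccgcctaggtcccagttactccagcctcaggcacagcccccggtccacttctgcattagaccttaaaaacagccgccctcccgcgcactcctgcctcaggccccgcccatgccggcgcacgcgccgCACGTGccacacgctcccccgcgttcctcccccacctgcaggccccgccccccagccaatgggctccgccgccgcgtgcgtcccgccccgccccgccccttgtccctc
Ddit4, chr10:59951771-59952020, minus strand: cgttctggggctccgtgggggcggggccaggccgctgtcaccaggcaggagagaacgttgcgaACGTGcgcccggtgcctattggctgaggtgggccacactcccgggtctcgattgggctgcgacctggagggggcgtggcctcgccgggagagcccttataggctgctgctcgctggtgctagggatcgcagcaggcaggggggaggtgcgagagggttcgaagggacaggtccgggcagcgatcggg
In Trim63 the glucocorticoid receptor palindrome (208 to 196 bases before the start) and the FoxO core (194 to 188 bases before it) lay next to each other with 1 base between them. Of 32841 promoter stretches of the same length, 13 (0.0396%) held the palindrome and 3.17% the FoxO core. Asb2 held a CArG box (1.47% of all stretches), and Asb2, Bnip3 and Ddit4 held the hypoxia core, which is common (16.6%). In Asb2 and Bnip3 the hypoxia core was matched on both strands by 1 palindrome. A second, downstream promoter of Fbxo40 held the antioxidant core (10.2%), and no match was found in the stretches of Trim54 and Sqstm1. A match is a description of letters and not a measurement of binding.

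The libraries held 9422462 to 13910358 counted reads. Ackr4 had 151 to 169 reads in the WT libraries and 1 to 12 in ACKR4_KO, so the labels held for the targeted gene. The 12 cardiomyocyte markers were detected in every library. ACKR4_KO replicates 2 and 3 stood apart from the rest, with Pearson correlations of log2 CPM across genes of 0.946 to 0.961 (replicate 2) and 0.946 to 0.960 (replicate 3) with the other libraries, against 0.972 to 0.982 among the remaining 4. In replicate 2 the 8 fibroblast markers summed to 3845 CPM (reads of a gene relative to all reads of the library) against 9459 to 13399 in the other libraries, and the 12 cardiomyocyte markers to 71750 CPM against 40727 to 58042. By edgeR's quasi-likelihood test 0 of 14406 genes (0%) passed an adjusted p of 0.05, and 1073 (7.45%) had an unadjusted p under 0.05. DESeq2 called 39 (0.271%) of the same genes.

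None of the 9 genes passed in any setting tried, by edgeR, DESeq2 or limma-voom. Their levels were higher in ACKR4_KO in 8 of 9 with the usual TMM scaling of the libraries, against 52% of all genes tested, and lower in 8 of 9 when the libraries were scaled to cardiomyocyte markers, where 90.4% of all genes were lower and 9.65% higher. Because these genes and the lists below were chosen with earlier results of these data known, such shares are descriptions and not tests. The median log2 fold change (ACKR4_KO minus WT) was 0.24 over the 9 genes and 0.01 over all genes tested. In each of the 9 genes the highest level of the 6 libraries belonged to ACKR4_KO replicate 2, but the share of all genes with their highest level there was not counted. Without that library 6 of 9 were higher and the median was 0.09, and without ACKR4_KO replicate 3, 9 of 9 and 0.27. At an unadjusted p under 0.05 there was 1 gene, Trim54, where 3.81% of all genes were higher and 3.64% lower at that p. That count was 0 without WT replicate 3, 3 without ACKR4_KO replicate 1 and 2 without ACKR4_KO replicate 3. Trim54 was also the only one of the 9 whose groups did not overlap, against 6.53% of all genes on the higher and 7.63% on the lower side.

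**Figure D1:**
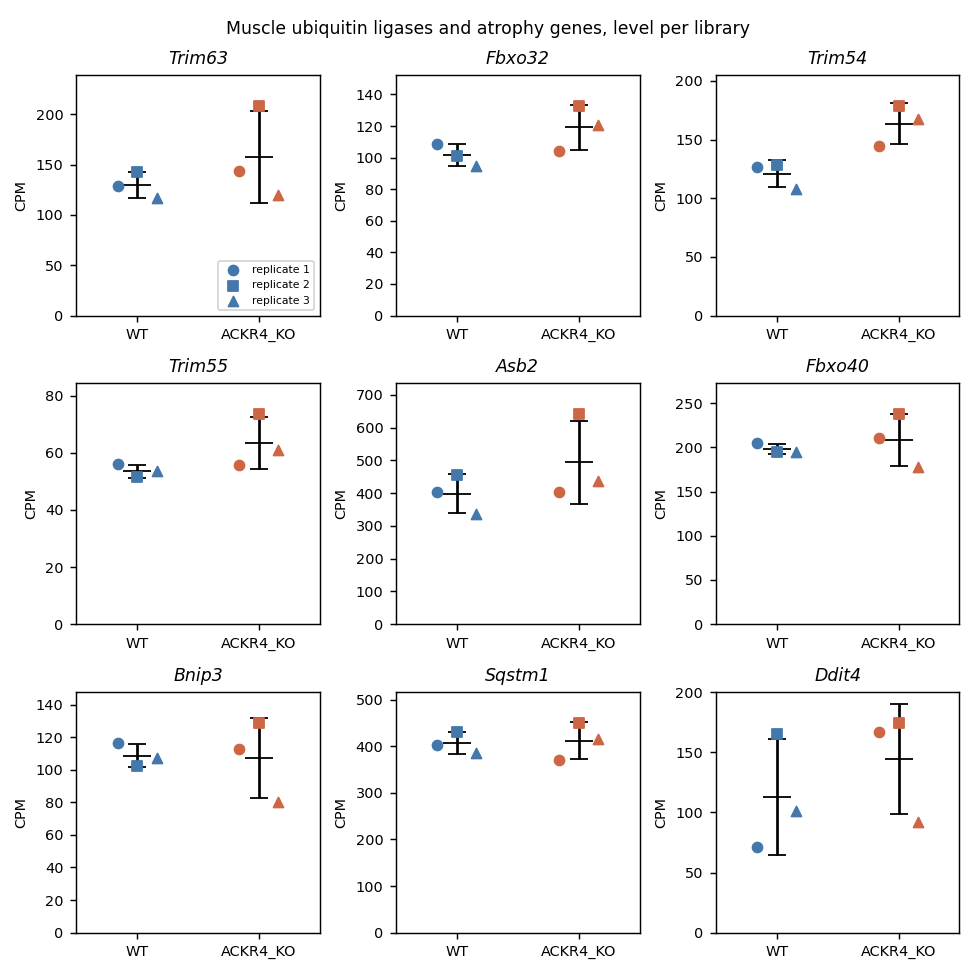
Level of each gene in CPM (vertical axis, from 0) in the 3 WT and 3 ACKR4_KO libraries, with the mean and SD in black and a symbol for each replicate number. ACKR4_KO replicate 2 (square) holds the highest value in all 9 panels, and the groups are separate in the Trim54 panel alone. How many of all genes were highest in that library was not counted.

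The muscle RING-finger proteins are closely related ligases that sit on the sarcomere and form homo- and heterodimers. Trim63 (ENSMUSG00000028834, chromosome 4, 134315120 to 134329629), which targets thick-filament proteins and troponin I, was at 129, 143 and 117 CPM in WT replicates 1, 2 and 3 and at 144, 208 and 119 CPM in ACKR4_KO replicates 1, 2 and 3. The groups overlapped, and a single library, ACKR4_KO replicate 2, stood well above the rest. Trim63 had a log2 fold change of 0.28 ± 0.20 (SE; edgeR, adjusted p = 0.748), which was 0.03 without that library and 0.45 without ACKR4_KO replicate 3. The 95% interval of the fold ran from 0.882 to 1.67.

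Trim54 (MuRF3; ENSMUSG00000062077, chromosome 5, 31116712 to 31137630), which binds microtubules and the Z-disc, was at 127, 129 and 108 CPM in WT and at 144, 179 and 168 CPM in ACKR4_KO. Each knockout library was above each WT library. Means and SDs over 3 libraries were 121 ± 11.5 CPM for WT and 164 ± 17.5 CPM for the knockout. This is a log2 fold change of 0.44 ± 0.14 (SE), a fold of 1.35 (95% interval 1.09 to 1.67), and the adjusted p by edgeR was 0.624. Without ACKR4_KO replicate 2 the log2 fold change was 0.37. The antisense gene Gm15469 shares 382 exonic bases with Trim54, and the sources used here do not give the strand setting of the counting, so reads of the pair cannot be told apart.

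Trim55 (MuRF2; ENSMUSG00000060913, chromosome 3, 19644474 to 19692421), which links titin's kinase domain to Sqstm1 and transcription, was at 55.9, 51.4 and 53.5 CPM in WT and at 55.9, 73.5 and 60.9 CPM in ACKR4_KO. The WT libraries lay close together and ACKR4_KO replicate 1 fell within them. Trim55 had a log2 fold change of 0.24 ± 0.13 (SE; edgeR, adjusted p = 0.693), and of 0.13 without ACKR4_KO replicate 2.

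Of the cullin-based ligase subunits, Fbxo32 (ENSMUSG00000022358, chromosome 15, 58175879 to 58214932), the substrate receptor of a Skp1-Cul1 complex that acts on calcineurin and eIF3f, was at 109, 101 and 94.7 CPM in WT and at 104, 133 and 121 CPM in ACKR4_KO. ACKR4_KO replicate 1 lay inside the WT range and the other 2 knockout libraries above it. For Fbxo32 the log2 fold change was 0.23 ± 0.13 (SE; edgeR, adjusted p = 0.701), and 0.15 without ACKR4_KO replicate 2. The antisense gene Gm15943 shares 186 exonic bases with Fbxo32.

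Fbxo40 (ENSMUSG00000047746, chromosome 16, 36963460 to 36990467), a muscle F-box protein that degrades the insulin receptor substrate IRS1, was at 205, 195 and 195 CPM in WT and at 210, 237 and 178 CPM in ACKR4_KO. The knockout libraries fell on both sides of the narrow WT range. Its log2 fold change was 0.07 ± 0.14 (SE; edgeR, adjusted p = 0.909), and the fold lay between 0.845 and 1.31 in its 95% interval. Without ACKR4_KO replicate 2 it was -0.02.

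Asb2 (ENSMUSG00000021200, chromosome 12, 103321142 to 103356001), the substrate receptor of a Cul5 ligase that degrades filamins, was at 403, 456 and 336 CPM in WT and at 404, 640 and 438 CPM in ACKR4_KO. Again replicate 2 of the knockout was alone above the WT range. Asb2 had a log2 fold change of 0.31 ± 0.21 (SE; edgeR, adjusted p = 0.733), and 0.09 without that library.

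The autophagy receptors had the fold changes closest to 0. Sqstm1 (p62; ENSMUSG00000015837, chromosome 11, 50199366 to 50210827), which binds ubiquitinated cargo and LC3, was at 404, 432 and 386 CPM in WT and at 370, 450 and 416 CPM in ACKR4_KO. Its highest level was 1.22 times its lowest, the smallest such ratio of the 9 genes, and the knockout range enclosed the WT range. Sqstm1 had a log2 fold change of 0.02 ± 0.14 (SE), and the 95% interval of the fold was 0.810 to 1.27 (edgeR, adjusted p = 0.981). The gene Mrnip on the other strand shares 580 exonic bases with Sqstm1.

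Bnip3 (ENSMUSG00000078566, chromosome 7, 138890836 to 138909519), a hypoxia-inducible receptor of mitophagy on the outer mitochondrial membrane, was at 117, 102 and 107 CPM in WT and at 113, 129 and 80.1 CPM in ACKR4_KO. The knockout libraries held both the highest and the lowest value. For Bnip3 the log2 fold change was -0.02 ± 0.17 (SE; edgeR, adjusted p = 0.981), and -0.17 without ACKR4_KO replicate 2 and 0.15 without ACKR4_KO replicate 3. The antisense gene Gm45507 shares 504 exonic bases with Bnip3.

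Ddit4 (REDD1; ENSMUSG00000020108, chromosome 10, 59949669 to 59951834), which releases the TSC complex to inhibit mTORC1, was the most variable of the 9. It was at 71.6, 166 and 101 CPM in WT and at 167, 174 and 91.9 CPM in ACKR4_KO. The highest library was 2.44 times the lowest, and the SD was 42.6% of the mean among WT libraries and 31.6% among knockout libraries. Ddit4 had a log2 fold change of 0.36 ± 0.36 (SE; edgeR, adjusted p = 0.820), and its 95% interval of the fold, 0.714 to 2.30, was the widest of the 9. Leaving out 1 library moved the log2 fold change from 0.11 (without WT replicate 1) to 0.74 (without WT replicate 2), with 0.21 without ACKR4_KO replicate 2 and 0.61 without ACKR4_KO replicate 3.

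**Figure D2:**
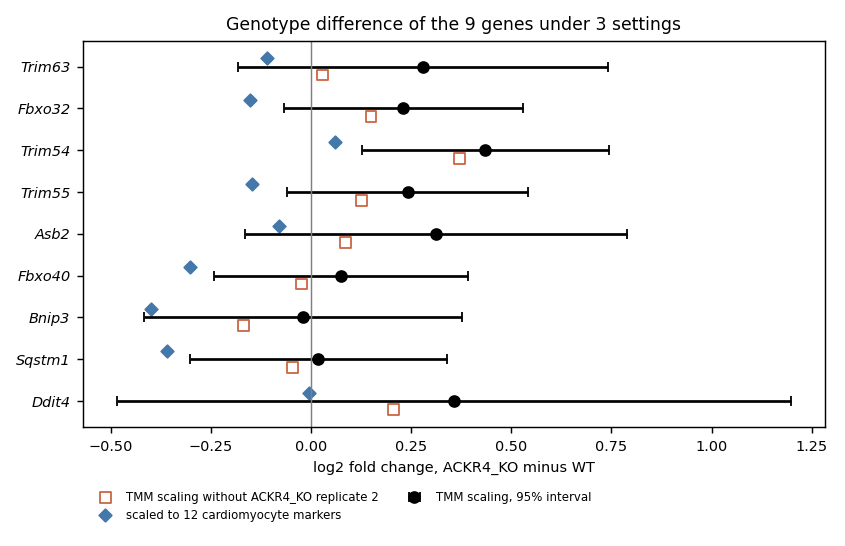
Log2 fold change, ACKR4_KO minus WT (horizontal axis), of the 9 genes with TMM scaling and its 95% interval (black), without ACKR4_KO replicate 2 (open squares) and with libraries scaled to 12 cardiomyocyte markers (diamonds). The black interval of Trim54 (0.13 to 0.74) is the only one that leaves out 0, and the diamonds lie at or below 0 except for Trim54 at 0.06.

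Compared per exonic length, the genes kept nearly the same order in both genotypes. Values here are RPKM, the CPM divided by the exonic length in kilobases in GENCODE M21. In WT the mean was highest for Sqstm1 (121 RPKM) and Asb2 (112 RPKM), whose libraries overlapped. Trim54 followed at 84.2 RPKM, below every WT value of Asb2. Ddit4 (64.3 RPKM, with libraries from 40.8 to 94.4) overlapped both Trim54 above it and Bnip3 (48.0 RPKM) below it, and Bnip3 overlapped Trim63 (45.6 RPKM). Fbxo40 (35.9 RPKM), Trim55 (20.2 RPKM) and Fbxo32 (14.6 RPKM) came last, each without overlap with the gene above. Of the 3 muscle RING-finger proteins, Trim54 was thus the most and Trim55 the least abundant per length, in ACKR4_KO too (114, 55.3 and 23.9 RPKM for Trim54, Trim63 and Trim55). In ACKR4_KO Asb2 (140 RPKM) stood before Sqstm1 (123 RPKM) and Trim63 before Bnip3 (47.3 RPKM), pairs that overlapped in both genotypes. The exonic length joins all annotated exons, so a gene with long exons that are little used, such as a long untranslated end, is understated.

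**Figure D3:**
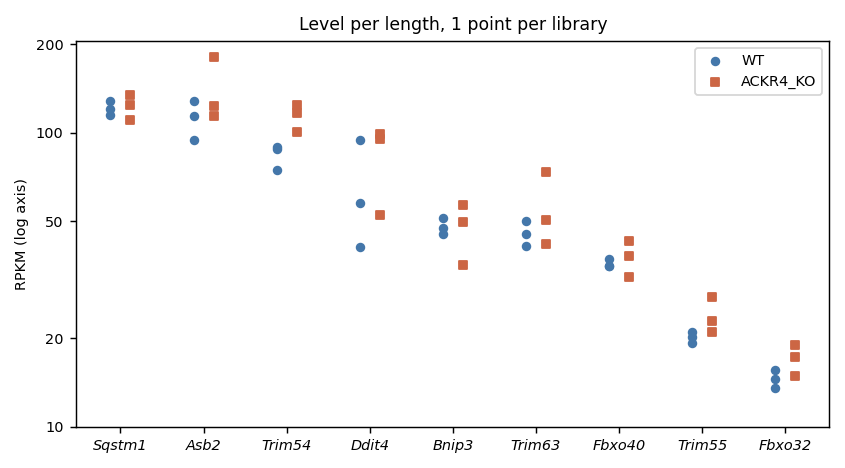
Level per exonic length (RPKM, log axis) of the 9 genes, ordered by the WT mean, with 1 point per library (WT circles, ACKR4_KO squares). The genes run from 121 RPKM for Sqstm1 to 14.6 RPKM for Fbxo32 in WT, and the wide spread of Ddit4 stands out.

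Heart muscle markers were compared with the 9 genes library by library. The 12 cardiomyocyte markers, among them Myh6, Actc1, Tnnt2 and Ryr2, were higher in ACKR4_KO in 12 of 12 (median 0.42 on the log2 scale), and none of them passed the test. Markers of other cell types lay on the lower side: 6 of 6 endothelial (median -0.23), 7 of 8 fibroblast (-0.38) and 7 of 8 macrophage markers (-0.16), with none past the test by edgeR or DESeq2. Without ACKR4_KO replicate 2 those medians were -0.35, -0.10 and 0.0058. The sum of the cardiomyocyte markers was 47484, 50473 and 40727 CPM in WT and 51708, 71750 and 58042 CPM in ACKR4_KO, with no overlap. Trim54 ranked the 6 libraries in the same order as this sum, but the share of all genes with that order was not counted. In bulk tissue, more muscle cells in the sample and more RNA of a gene per muscle cell cannot be told apart.

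With libraries scaled to these markers, the median of all genes moved to -0.36, and that of the 9 genes to -0.15, a distance of 0.21 above all genes. Without ACKR4_KO replicate 2 that distance was 0.082 on this scale and 0.074 with TMM. On that scale Trim54 had a log2 fold change of 0.06 and the others lay between -0.40 (Bnip3) and -0.0054 (Ddit4), with adjusted p by edgeR of 0.196 or more. At an unadjusted p under 0.05 there was 1, Sqstm1 (lower), against 23.3% of all genes. Relative to the mean of the markers in each library, with the WT mean set to 0, Sqstm1 was at -0.06, 0.001 and 0.06 (log2) in WT and at -0.30, -0.45 and -0.34 in ACKR4_KO. Fbxo32 was at 0.05, -0.09 and 0.04 in WT and at -0.13, -0.20 and -0.12 in ACKR4_KO. These 2 of the 9 genes did not overlap between the groups on this scale, both lower in ACKR4_KO, against 34.2% of all genes lower and 0.458% higher, so the share is no larger than the background. Sqstm1 is expressed in most cell types and not in muscle alone, and which cells its reads came from was not tested.

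Skeletal muscle expresses several of these ligases as well. The 11 fast skeletal muscle markers summed to 15.8, 138 and 175 CPM in WT and to 12.8, 22.6 and 35.2 CPM in ACKR4_KO, with 1 to 4 of the 11 at 0 reads in each library. Mybpc2 made up much of the low sums, at 11.1, 15.2 and 11.2 CPM in WT and 9.85, 11.3 and 30.1 CPM in ACKR4_KO. It was the 1 higher gene of 7 tested, and 6 were lower. At an unadjusted p under 0.05 by edgeR 5 were lower, against 3.64% of all genes. DESeq2 called 1 and edgeR 0. Myh4, which defines the fastest fibres, had 0, 50 and 43 reads in WT and 0, 11 and 0 in ACKR4_KO. WT replicates 2 and 3 carried most of this signal. The part of these transcripts in the levels above was not tested. The lung epithelial markers, 8 genes, summed to 40.6 to 248 CPM in WT and to 0.323 to 1.83 CPM in ACKR4_KO. All 6 that were tested were lower in ACKR4_KO without overlap, against 7.63% of all genes. DESeq2 called these 6, among its 39 calls, and edgeR called 0. Lung transcripts thus differed along with genotype, and the cause was not tested.

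**Figure D4:**
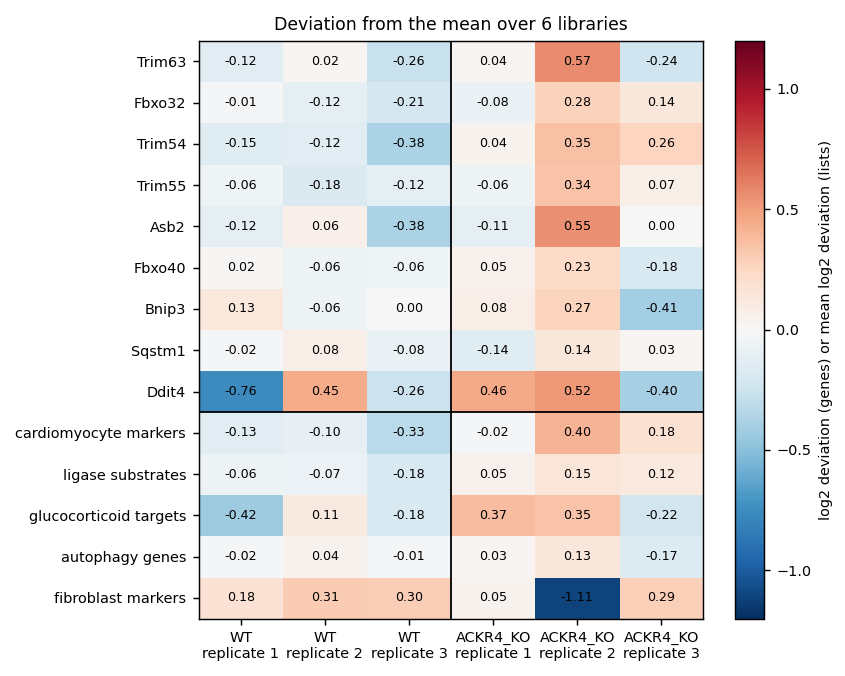
Deviation of each library (columns) from the mean over 6 libraries, as log2 CPM for the 9 genes (upper rows) and as the mean log2 deviation for 5 gene lists (lower rows). ACKR4_KO replicate 2 is high for the genes and for cardiomyocyte markers (0.40) and low for fibroblast markers (-1.11), and the row of Ddit4 resembles that of the glucocorticoid targets.

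Genes that respond to glucocorticoids, which induce Trim63, Fbxo32 and Ddit4, were higher in ACKR4_KO in 7 of 10 with a median log2 fold change of 0.38. That median was 0.23 without WT replicate 1 and 0.014 with cardiomyocyte scaling, where the median of all genes was -0.36 (0.01 with TMM). None passed by edgeR, and DESeq2 called Fkbp5 and Zbtb16 (adjusted p = 0.000528 and 0.0302). Fkbp5, which encodes an Hsp90 co-chaperone that holds this receptor in check, was at 32.4, 27.0 and 36.4 CPM in WT and at 69.5, 75.7 and 51.6 CPM in ACKR4_KO, without overlap. The most abundant members were Tsc22d3, Sgk1, Klf9 and Pdk4, with log2 fold changes of 0.39, -0.19, 0.37 and 0.21. The sum over the 10 genes was 626, 1017 and 739 CPM in WT and 1073, 1145 and 661 CPM in ACKR4_KO, and the 6 libraries had the same order in this sum as in Ddit4. In the mean log2 deviation of the 10 genes the order differed, with ACKR4_KO replicate 2 below replicate 1, and of the single genes 1 of 10 had the order of Ddit4. That gene was Tsc22d3 (GILZ), at 121, 236 and 163 CPM in WT and 248, 271 and 159 CPM in ACKR4_KO. Of all 14406 genes, 22 (0.153%) had that order, with Ddit4 counted. This likeness was noticed after the values were seen. The receptor gene Nr3c1 had 107 to 129 CPM across WT and 98.0 to 100.4 CPM across ACKR4_KO, a log2 fold change of -0.28 (edgeR, adjusted p = 0.665).

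Of the other transcriptional inputs of the atrophy genes, 12 of 14 were tested and 0 passed by edgeR. Of these, 8 were higher and 4 lower in ACKR4_KO, with a median log2 fold change of 0.12 that turned negative when 1 library was left out (-0.042 without WT replicate 1 and -0.013 without ACKR4_KO replicate 2). Foxo3, the FoxO factor best known as the driver of Fbxo32, was at 90.8, 87.1 and 87.6 CPM in WT and at 111, 101 and 105 CPM in ACKR4_KO. These groups did not overlap, and the log2 fold change was 0.26 ± 0.11 (SE; edgeR, adjusted p = 0.663). Foxo4 and Nfkb1 had 0.06 and -0.11. Of the 12 tested, 2 did not overlap on the higher side (Foxo3 and Ppargc1a) and 2 on the lower (Nr3c1 and Nfkb1). Of all genes, 6.53% and 7.63% did so. DESeq2 called Ppargc1a (adjusted p = 0.0418), a coactivator that restrains FoxO-driven atrophy, with averages of 46.3 CPM (WT) and 81.3 CPM (ACKR4_KO). Myostatin (Mstn) and Myog were under the filter on low counts.

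In the insulin, Akt and mTORC1 pathway, which restrains the ligases and is restrained by Ddit4, 14 of 20 genes were higher and 6 lower, with a median of 0.08 and 0 past the test by edgeR or DESeq2. The list pools genes that promote this pathway with genes that restrain it, such as Tsc1 and Tsc2. These counts therefore give no direction of the pathway. The most abundant were Akt1, Akt2, Sesn1 and Insr, with log2 fold changes of 0.09, 0.23, 0.23 and 0.32. At an unadjusted p under 0.05 by edgeR there were 3, all higher and picked for that p: Insr, Pik3r1 and Mtor. Of all genes tested, 3.81% were higher and 3.64% lower at that p. Irs1, the substrate of Fbxo40, had a log2 fold change of -0.01.

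Other ubiquitin ligases of muscle were higher in 22 of 28 genes (median 0.14), and 0 passed by edgeR or DESeq2. Among the most abundant, Nedd4, Trim72 and Huwe1 had log2 fold changes of -0.05, 0.63 and 0.25. Trim72 (MG53) is a membrane-repair ligase of striated muscle. Rnf207, a cardiac RING-finger protein, had the smallest p of this list (unadjusted p = 0.00088 by edgeR) and was named for it after its values were seen. It was at 24.6, 23.0 and 20.6 CPM in WT and at 34.2, 33.2 and 41.8 CPM in ACKR4_KO, without overlap, a log2 fold change of 0.68 ± 0.14 (SE; edgeR, adjusted p = 0.462). Without ACKR4_KO replicate 2 the median of the list was 0.04.

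The cullins, adaptors, E1, E2 and ubiquitin genes with which the ligases work were higher in 15 of 20 (median 0.13). Of the most abundant, Ubb, Ube2d3, Ube2b and Uba1 had log2 fold changes of 0.20, 0.20, 0.16 and 0.22. DESeq2 called 1, Rps27a, a fusion of ubiquitin with a ribosomal protein, with averages of 193 CPM (WT) and 87.1 CPM (ACKR4_KO; adjusted p = 0.0485), and edgeR called 0. Rps27a has processed pseudogenes, so its value is uncertain where counting could split reads between copies.

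Described substrates and sarcomeric partners of the ligases, 6 of 18 of them also cardiomyocyte markers, were higher in 16 of 18, with a median of 0.24 and 0 past the test by edgeR or DESeq2. Myh6, Myl2, Myl3 and Tnnt2 were the most abundant, with log2 fold changes of 0.43, 0.48, 0.23 and 0.42. Autophagy and mitophagy genes were split, 13 higher and 16 lower of 29, with a median of -0.04 and 0 with an unadjusted p under 0.05. Among these, the mitophagy kinase gene Pink1 was at 551, 574 and 517 CPM in WT and at 617, 711 and 375 CPM in ACKR4_KO, and Map1lc3a, Ctsl and Lamp2 had log2 fold changes of 0.28, -0.24 and -0.14. Other hypoxia-inducible genes, which respond to hypoxia as Bnip3 and Ddit4 do, were higher in 6 of 11 (median 0.06). Of the most abundant, Vegfa had a log2 fold change of 0.49 (edgeR, adjusted p = 0.606), and Pgk1, Pdk1 and P4ha1 had 0.21, 0.06 and 0.21. Other targets of Nrf2, which also induces Sqstm1, were lower in 6 of 8 (median -0.14), with Txnrd1, Nqo1, Srxn1 and Gclm between -0.19 and 0.01. None of these 4 lists held a gene past the test by edgeR or DESeq2. The autophagy median was 0.063 without ACKR4_KO replicate 3, and the hypoxia median -0.017 without WT replicate 3. With cardiomyocyte scaling, where the median of all genes was -0.36, the list medians were -0.24 for other ligases, -0.25 for their partners, -0.25 for transcriptional inputs, -0.30 for the insulin pathway, -0.14 for substrates, -0.42 for autophagy, -0.31 for hypoxia and -0.52 for Nrf2 targets.

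**Figure D5:**
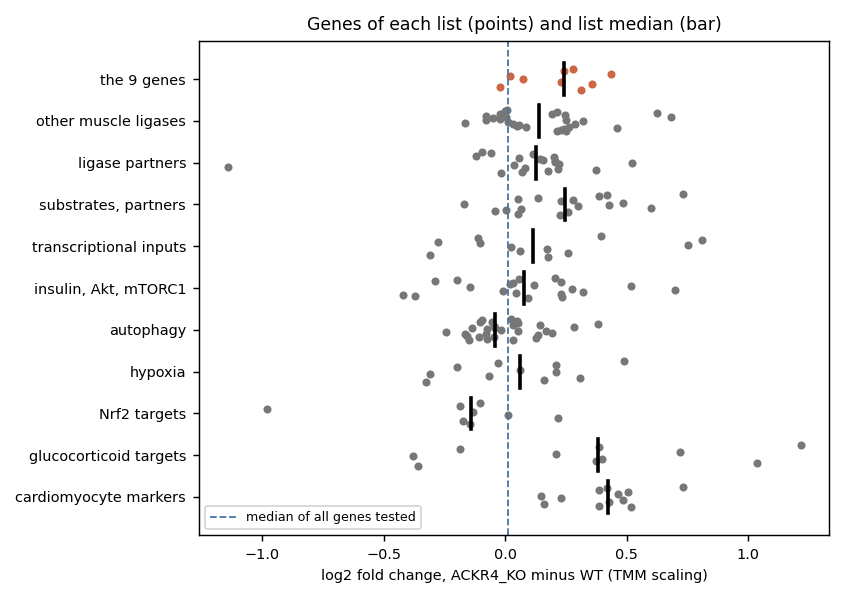
Log2 fold change, ACKR4_KO minus WT with TMM scaling (horizontal axis), of each tested gene of 11 lists (points), with the list median (bar) and the median of all genes tested (dashed line at 0.01). The bar of the 9 genes is at 0.24, between those of other muscle ligases (0.14) and cardiomyocyte markers (0.42), and that of autophagy genes is at -0.04.

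The genes most like Trim63 and Fbxo32 over the 6 libraries were sought among 9452 genes with a mean of at least 10 CPM. The highest Pearson correlations of log2 CPM with Trim63 were those of Tcp1, Sgca and Coq8a (0.999, 0.998 and 0.995), and with Fbxo32 those of Tbc1d9, Chid1 and Srl (0.995, 0.993 and 0.989). Sgca encodes a sarcoglycan of the muscle membrane and Srl a calcium-binding protein of the sarcoplasmic reticulum. Tcp1, Coq8a, Tbc1d9 and Chid1 are not described here, and a function common to these genes was not tested. The correlations rest on 6 libraries alone. Of the 9452 genes compared, 188 exceeded 0.95 with Trim63 and 76 with Fbxo32. All points share the same libraries, and ACKR4_KO replicate 2 is the highest in both genes. Among the 9 genes, Fbxo32 and Trim55 had a correlation of 0.93 over the 6 libraries and Fbxo32 and Trim54 also 0.93, while Trim63 and Fbxo32, often named together, had 0.65. Fbxo40 and Bnip3 had 0.92, and both had their lowest level in ACKR4_KO replicate 3. These are descriptions over 6 libraries of 2 genotypes.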

How the data were processed

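Raw read counts per Ensembl gene were deposited for each library. The submitters' processing notes name CASAVA 1.8.2, HISAT2, HTSeq 0.6.0 and the build mm10. Sources used here do not give the strand setting or which annotation was counted. Of 54532 rows, 54409 had a symbol, and 2 list genes were found under an older one (Skp1a, Ero1l). Genes were kept with filterByExpr of edgeR 4.0.16 (minimum count 10, total 15), which left 14406, and libraries were scaled by TMM. ACKR4_KO was compared with WT by edgeR's robust two-sided quasi-likelihood test, p-values were adjusted by Benjamini-Hochberg across the genes kept, and 0.05 was the threshold. CPM used TMM-scaled library sizes. DESeq2 1.42.0 and limma 3.58.1 (voom) were alternatives, in R 4.3.3. At the depths given, 3 reads are at most 0.309 CPM. Coordinates and exonic lengths came from GENCODE M21 (GRCm38, the assembly of mm10), promoters from RefSeq. The edgeR and DESeq2 fits were tested on simulated data. All 9 genes are named, and from each other list up to 4, those past the threshold or otherwise the most abundant; 1 gene so chosen is not reported here. Members and lists were chosen with earlier results of these data known. Likeness to Trim63 and Fbxo32 names 3 genes each.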

Additional observations from a re-analysis of the deposited data

How the results depend on the processing

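None of the 9 genes passed in any of the 17 planned settings or in the 1 chosen after seeing the data, and their adjusted p lay between 0.196 and 0.999. The number of genes past the threshold, 0 by edgeR, was 1 with cardiomyocyte scaling, 24 without the filter on low counts, 39 with DESeq2 on the filtered genes and 41 with DESeq2 on all genes with a read, and lay between 0 and 1 with each library left out (1 without ACKR4_KO replicate 3). Cardiomyocyte scaling left 1 of 9 genes higher, and turned the log2 fold change of Trim63 (-0.11), Fbxo32 (-0.15), Trim55 (-0.15), Asb2 (-0.080), Fbxo40 (-0.30), Sqstm1 (-0.36) and Ddit4 (-0.0054), by the construction of that scale, on which the median of all genes moved from 0.01 to -0.36. With ACKR4_KO replicate 2 left out as well, a setting chosen after seeing the data, 1 of 9 was again higher, with -0.23 for Trim63, -0.13 for Fbxo32, -0.15 for Trim55, -0.18 for Asb2, -0.29 for Fbxo40, -0.32 for Sqstm1 and -0.031 for Ddit4. With each library left out under TMM, 6 to 9 of the 9 genes were higher (6 without ACKR4_KO replicate 2); the direction turned for Bnip3 (-0.17 to 0.15), Sqstm1 (-0.046 to 0.089) and Fbxo40 (-0.025 to 0.18), and the cause was not tested. RLE and upper-quartile factors, limma-voom, no robust estimation, the stricter filter and removal of mitochondrial and hemoglobin genes turned no direction among the 9 genes and called 0 genes. With the replicate number as a block, edgeR called 6 genes and none of the 9. Deviations of same-numbered libraries correlated at 0.065, 0.052 and 0.117 across genes. Every library correlated best with its own number, but WT replicate 1 and ACKR4_KO replicate 2 reached 0.049. The labels do not tie the numbers to a shared litter or day, and whether the libraries are paired was not tested. Cell numbers and RNA per cell cannot be separated in these libraries, and with 3 libraries per group the intervals of the fold reached from 0.714 to 2.30 for the most variable gene.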
